A study of Mus musculus with 6 samples.

Results

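The secreted and membrane-bound cues that steer axons, and the receptors that read them, were examined in whole-brain RNA of 6 mice, 1 Affymetrix Mouse Gene 2.0 ST array each. Members were chosen by gene symbol among genes with a probeset assigned to that symbol alone: semaphorins of classes 3 to 7, plexins, Nrp1 and Nrp2, Eph receptors, ephrins, Robo and Slit genes, netrins, Unc5 genes and Dcc. The spelling rule matched 70 of 22180 genes. It also took in Unc50, Unc5cl and the antisense transcript Plxna4os1, which share letters with the families but encode no guidance cue or receptor of them, so 67 symbols are guidance genes by name. Efna4 lay under the brightness limit, the 25th percentile of the mean log2 level of all genes, and 69 symbols, 66 of them guidance genes, were tested among 16635 genes.

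Knockout mice (n = 3) carried 2 floxed alleles of Elavl1, the gene of the RNA-binding protein HuR, with a tamoxifen-inducible Cre recombinase and an EYFP reporter under Thy1 (Thy1Cre-ERT2-EYFPHuRf/f). Control mice (n = 3) carried the same transgene with 1 floxed allele (Thy1Cre-ERT2-EYFPHuRf/+), so that both groups were exposed to Cre and a control can lack 1 copy of the gene after induction. Males and females were used, both groups received tamoxifen at week 10 and again at week 11, and total brain was collected when the mice were 91 days old. Thy1 drives the Cre in neurons, while the RNA came from all cells of the brain, and nothing in the labels says which arrays came from separate litters or days, so the p-values here speak only of array-to-array spread, which may be technical.

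Axon guidance works through paired families. Class 3 semaphorins are secreted, and most bind neuropilins, which hold plexins as the signalling partner. Most other semaphorins are membrane-bound and bind plexins directly. Ephrins are membrane-anchored ligands of the Eph receptor tyrosine kinases and signal at cell contacts in both directions, Slits repel growth cones through Robo receptors, and netrins attract through Dcc or repel through Unc5 receptors. In the adult brain many of these genes remain in use at synapses, in myelin and in vessels.

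The whole-series checks set the frame. Array medians of the deposited intensity ran from 13.4 to 14.6. Elavl1 had log2 levels of 8.22, 8.18 and 8.27 in knockout brains, against 8.27, 8.01 and 8.53 in control brains, a difference of -0.05 ± 0.15 (SE; two-sided exact permutation p = 0.7, where 3 against 3 arrays allow no p below 0.1), and median-centring of the arrays gave 0.014. Whether the probeset reads the floxed exons is unknown here, so this does not check the labels. All 7 neuron markers lay above the array median on each array, against 1 of 4 liver markers. Knockout 3 and control 3 differed from the rest: Xist, the RNA of the silenced X chromosome, was at log2 7.68 in knockout 3 and 7.69 in control 3, against 2.52 to 2.79 on the other 4. The labels give no sex per sample. In whole tissue, fewer cells of a type and less RNA per cell cannot be told apart.

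**Figure D1:**
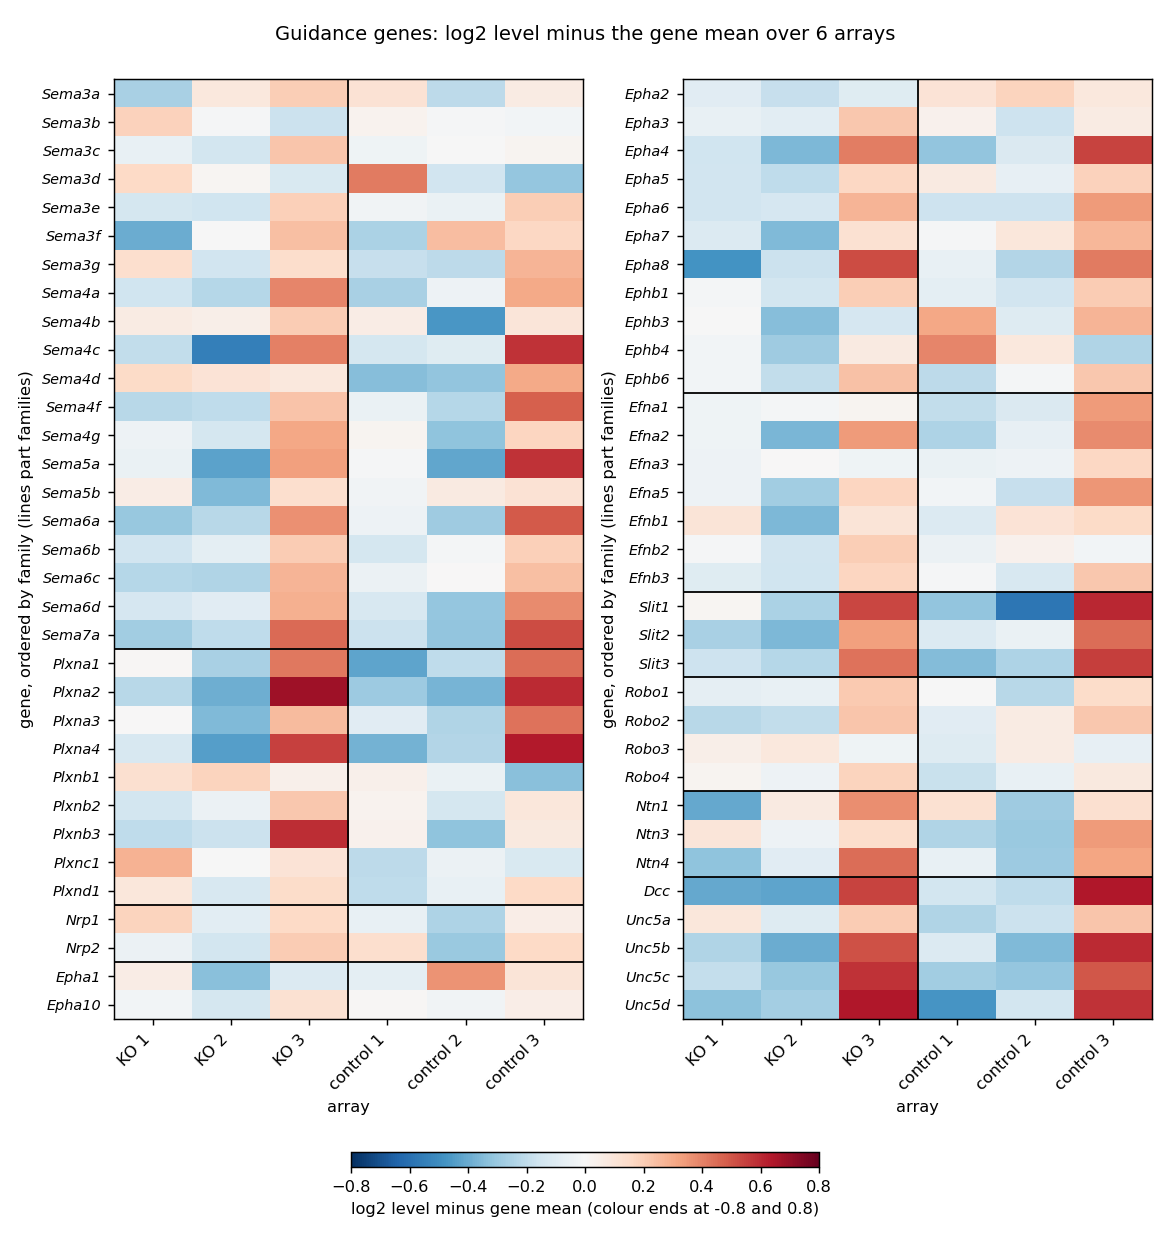
Log2 level of each tested guidance gene on each array, minus the gene's own mean over the 6 arrays, with knockout (KO) arrays left of the line and control arrays right of it in each panel. Red marks a value above the gene's mean and blue one below it. The columns of KO 3 and control 3 are red for most genes, and 50 of 66 genes have both of them above the other 4 arrays.

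No guidance gene passed the threshold between knockout and control brain. Of the 69 tested symbols, 0 had a Benjamini-Hochberg adjusted p under 0.05 in limma (smallest adjusted p = 0.9998), beside 0% of all 16635 genes, and 0 passed with arrays of the same number treated as pairs (smallest adjusted p = 0.984). At an unadjusted p under 0.05 there was 1 symbol, Epha2, or 1.45%, against 1.7% of all genes. With pairs there were 3, Ephb3, Epha2 and Plxnb1, or 4.35%, against 4.85% of all genes. Both shares are near those of all genes. The guidance genes divided evenly by sign, with 34 of 66 above 0 and a median log2 fold change of 0.0005, where the median of all genes was 0.01 and 54.8% lay above 0. With arrays centred on their median, 62.3% of the 69 symbols and 68.6% of all genes lay above 0. The 95% intervals had a median half-width of 0.39 on the log2 scale, and their outermost bounds were -0.94 for Dcc and 0.96 for Slit1, so the interval of each guidance gene stayed inside a 2-fold change (1 on the log2 scale) in either direction.

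**Figure D2:**
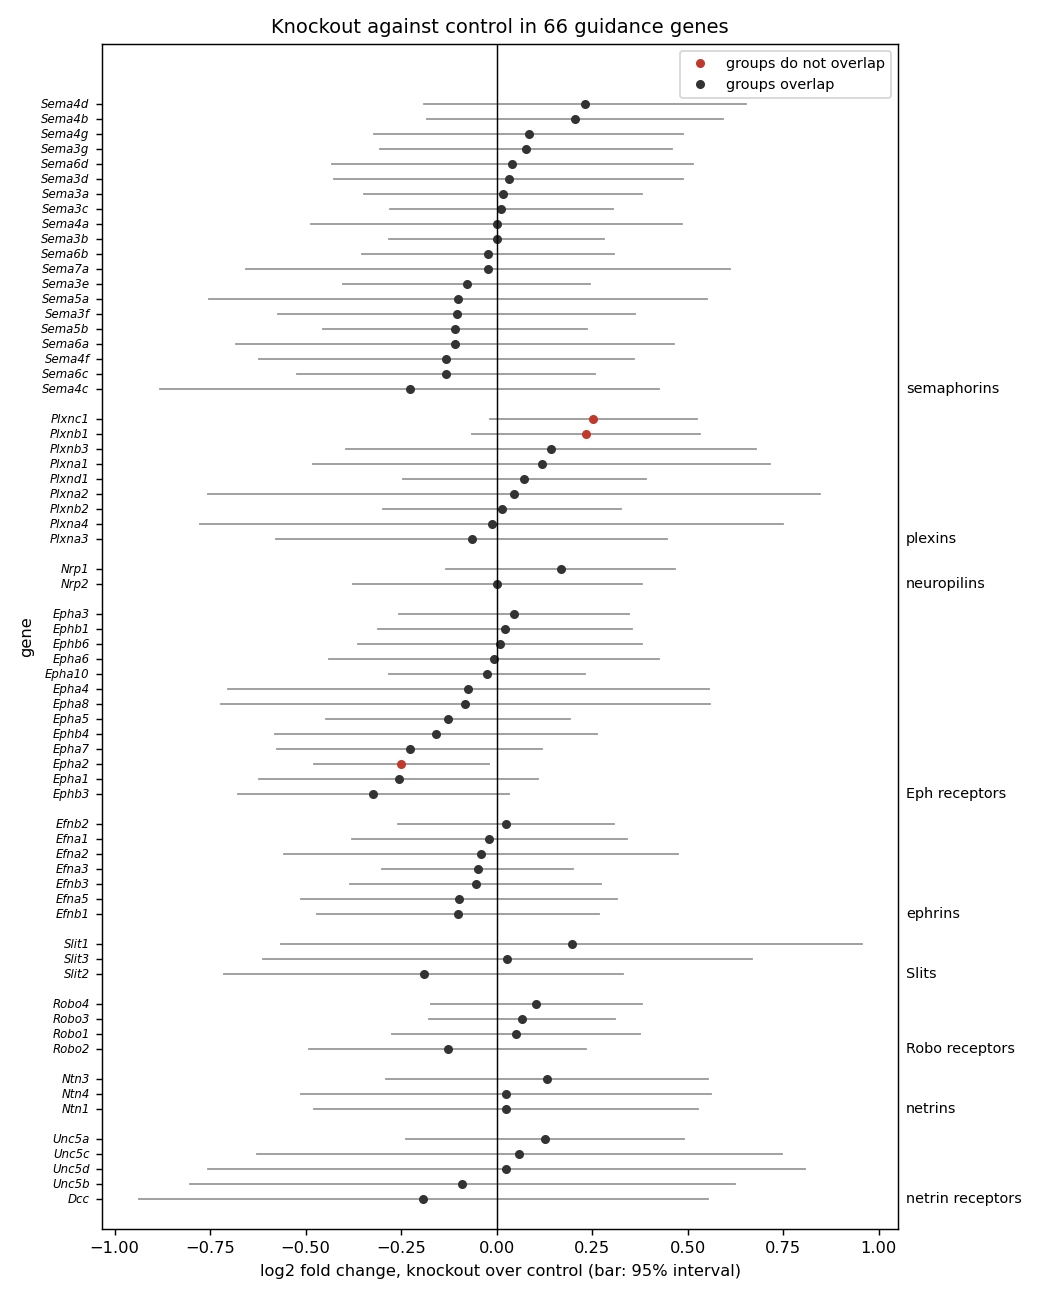
Log2 fold change of knockout over control for the 66 tested guidance genes (points), with 95% intervals from limma (bars), grouped by family. Red points mark the 3 genes whose groups do not overlap, and Epha2 is the only gene whose interval leaves out 0.

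The 3 knockout arrays lay wholly to one side of the 3 control arrays in 3 genes, all receptors: Plxnc1, Plxnb1 and Epha2. That is 4.35% of the tested symbols, where 5.7% of all genes did not overlap. By direction, 2 symbols were higher in each knockout array, as were 3.14% of all genes, and 1 was lower, as were 2.55%. A gene in which both arrays numbered 3 lie above, or below, the other 4 cannot separate the groups, since each group holds 1 such array. This held for 51 of the 66 guidance genes and 7322 of the 16635 genes. Among genes that could separate, the share was 3 of 15 guidance genes (20%), against 10.2% of all genes. Which genes could separate was read from the same array values, and the guidance share rests on 3 genes. It is a description with no test.

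Plxnc1 encodes plexin C1, the receptor of the membrane-anchored semaphorin Sema7a. Its log2 level was 8.10, 7.82 and 7.93 in knockout brains, against 7.61, 7.77 and 7.70 in control brains. The lowest knockout array exceeded the highest control array by a margin smaller than the spread within either group. The log2 fold change was 0.25 ± 0.12 (SE), or 1.19-fold, with a 95% interval of -0.02 to 0.52 with and without pairs, and did not pass (limma adjusted p = 0.9998). Sema7a itself was at -0.02 ± 0.27 (SE), and was positive, at 0.0056 and 0.04, with deposited and with median-centred values.

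Plxnb1 encodes plexin B1, the receptor of Sema4d. It had log2 levels of 7.003, 7.056 and 6.916 in knockout brains, against 6.914, 6.820 and 6.540 in control brains. Knockout 3 and control 1 nearly touched, and control 3 was the lowest of the 6. The log2 fold change was 0.23 ± 0.13 (SE; 95% interval -0.07 to 0.53; limma adjusted p = 0.9998), and 0.12 without control 3. With pairs the interval was 0.0015 to 0.47 (limma adjusted p = 0.984). A second, dimmer probeset of Plxnb1 also placed all knockout arrays above all control arrays, by 0.10 on average, at log2 3.12 to 3.26 in knockout and 3.05 to 3.09 in control brains, below the normalized array median of 3.88. The ligand Sema4d had 6.54, 6.49 and 6.47 in knockout brains, against 6.05, 6.07 and 6.69 in control brains. Controls 1 and 2 lay below every knockout array and control 3 above them all, which gave 0.23 ± 0.18 (SE), and 0.44 without control 3.

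Epha2 is an Eph receptor best known from epithelia and vessels. Its log2 level was 3.23, 3.13 and 3.22 in knockout brains, against 3.43, 3.50 and 3.40 in control brains. The groups were clear of each other, at -0.25 ± 0.10 (SE; 95% interval -0.48 to -0.02; limma adjusted p = 0.9998). All 6 values were below their array's median, and the difference was -0.10 with a pseudocount of 16. With that pseudocount, with median-centred arrays or with any 1 array left out, it no longer passed an unadjusted p of 0.05, at -0.27 to -0.22 with 1 array left out.

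Ephb3, a receptor of B ephrins, had the lowest fold change of the families. It had log2 levels of 5.22, 4.88 and 5.09 in knockout brains, against 5.54, 5.13 and 5.50 in control brains. Each knockout array lay below the control array of its number, and the groups overlapped through knockout 1 and control 2. The log2 fold change was -0.32 ± 0.15 (SE; 95% interval -0.68 to 0.03; limma adjusted p = 0.9998). With pairs the interval was -0.53 to -0.11 (limma adjusted p = 0.984). The labels do not say that the numbers pair the mice.

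**Figure D3:**
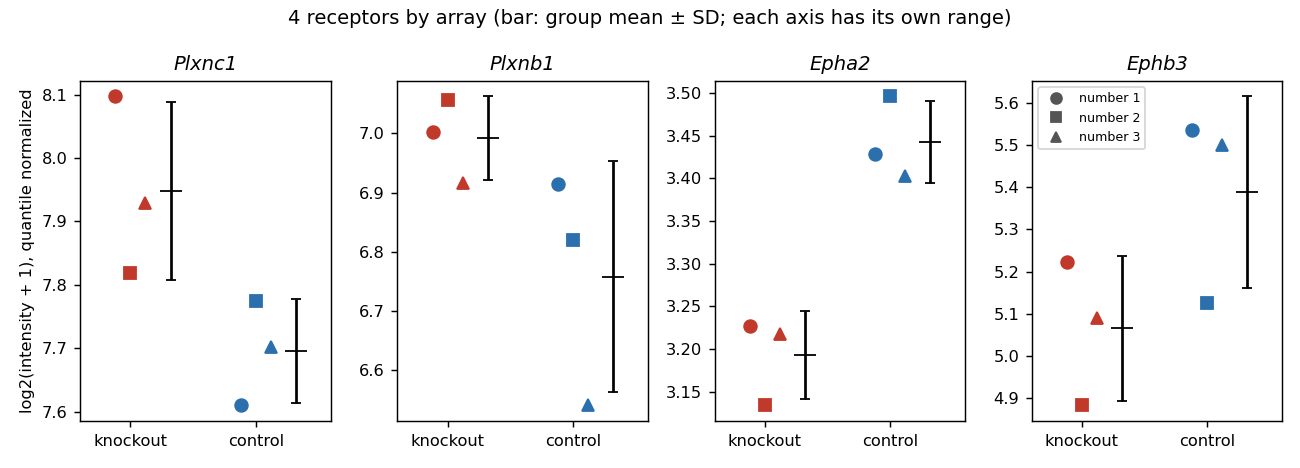
Log2 level of Plxnc1, Plxnb1, Epha2 and Ephb3 on each array, with knockout left and control right. Symbols give the replicate number and the bar beside each group its mean ± SD (n = 3). Plxnc1 and Plxnb1 are higher and Epha2 lower in each knockout array than in each control array, while Ephb3 overlaps, and none passed an adjusted p of 0.05.

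The promoter windows of these 3 non-overlapping receptors are printed below with that of Plxna2, the guidance gene with the largest spread around its group means, to show the start-site sequence behind the genes that the results turn on. Each holds 250 bases before and 50 after a start site on GRCm38.p6, 5′ to 3′ as the RefSeq table gives it. This site need not be the outer end of the gene. The whole Plxnb1 window lies inside the RefSeq span of its gene, which starts at 109093849, and the sites of Plxnc1 and Plxna2 also lie inside their spans. Capitals mark the GC box GGGCGG or its reverse complement CCGCCC, and overlapping matches are counted singly.
Plxnc1, chr10:94944796-94945095, - strand: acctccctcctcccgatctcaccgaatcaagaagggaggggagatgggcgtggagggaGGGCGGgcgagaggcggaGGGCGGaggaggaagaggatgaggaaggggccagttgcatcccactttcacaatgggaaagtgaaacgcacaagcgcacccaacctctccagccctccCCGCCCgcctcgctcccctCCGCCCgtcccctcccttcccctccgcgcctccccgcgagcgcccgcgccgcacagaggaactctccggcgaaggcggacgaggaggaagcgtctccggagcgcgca
Plxnb1, chr9:109095186-109095485, + strand: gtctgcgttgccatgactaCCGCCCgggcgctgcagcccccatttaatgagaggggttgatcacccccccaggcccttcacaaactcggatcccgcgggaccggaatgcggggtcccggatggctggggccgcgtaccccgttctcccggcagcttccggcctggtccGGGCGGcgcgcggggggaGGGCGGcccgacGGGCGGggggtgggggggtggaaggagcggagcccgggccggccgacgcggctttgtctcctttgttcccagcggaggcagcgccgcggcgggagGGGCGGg
Epha2, chr4:141300971-141301270, + strand: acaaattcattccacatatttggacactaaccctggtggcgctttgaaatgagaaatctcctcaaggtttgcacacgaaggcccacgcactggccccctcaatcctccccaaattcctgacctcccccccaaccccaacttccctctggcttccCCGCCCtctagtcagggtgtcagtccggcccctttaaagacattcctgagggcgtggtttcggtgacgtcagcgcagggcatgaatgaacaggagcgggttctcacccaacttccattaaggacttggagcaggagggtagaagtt
Plxna2, chr1:194619579-194619878, + strand: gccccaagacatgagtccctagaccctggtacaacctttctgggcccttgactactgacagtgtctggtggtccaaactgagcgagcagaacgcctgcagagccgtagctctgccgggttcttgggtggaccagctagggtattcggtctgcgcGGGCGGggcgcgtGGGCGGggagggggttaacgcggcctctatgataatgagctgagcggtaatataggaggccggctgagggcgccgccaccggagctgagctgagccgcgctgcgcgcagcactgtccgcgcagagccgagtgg

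Plxnb1 had 5 GC boxes, Plxnc1 had 4, Plxna2 had 2 and Epha2 had 1. Of the 66 tested guidance genes, 56 had an entry, with 72 windows in all, and 73.6% of these windows held a GC box, against 55.6% of the 16205 windows of all tested genes and 35.7% of all 32851 windows in the table. A match is a description of the letters and says nothing about a bound factor.

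The 33 ligands had a median log2 fold change of -0.02, and 16 lay above 0. The semaphorins split 10 and 10 (median -0.01). Their highest value belonged to Sema4d, described above, and the next to Sema4b at 0.20 ± 0.17 (SE), where control 2 stood low at 4.81 against 5.32 to 5.47 in knockout brains. The lowest was that of Sema4c, a transmembrane class 4 semaphorin. It had 5.18, 4.84 and 5.78 in knockout brains, against 5.24, 5.29 and 5.96 in control brains, so that the groups interleaved, at -0.23 ± 0.28 (SE). Of the 7 class 3 semaphorins, the secreted cues, 5 lay above 0 and 2 below, all between -0.11 and 0.08, among them Sema3a, the classic growth-cone collapsing factor, at 0.02 ± 0.16 (SE). Sema3b, Sema3c, Sema3d and Sema3g were the others above 0, and Sema3e and Sema3f lay below. Sema3a and Sema3b took the opposite sign with deposited values. In class 4, Sema4a and Sema4g were at 0.0006 and 0.08 and Sema4f at -0.13. Of the membrane-attached semaphorins of classes 5 to 7, 6 of 7 lay below 0, namely Sema5a, Sema5b, Sema6a, Sema6b, Sema6c and Sema7a, and Sema6d was at 0.04. Their median was -0.10, and each was smaller than its standard error. Sema6b and Sema7a turned positive with median-centred arrays.

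Of the 7 ephrins tested, 6 lay below 0, with values from -0.10 to 0.03 that were each smaller than their standard error. Efnb1 had 6.07, 5.60 and 6.06 in knockout brains, against 5.85, 6.07 and 6.12 in control brains, a difference of -0.10 ± 0.16 (SE) in which knockout 2 was the lowest array. Efnb2, which marks arterial endothelium as well as neurons, had 7.83, 7.69 and 8.04 in knockout brains, against 7.80, 7.88 and 7.82 in control brains (0.03 ± 0.12, SE). Efna1, Efna2, Efna3, Efna5 and Efnb3 lay between -0.10 and -0.02, and Efna2, Efna3 and Efnb3 turned positive with median-centred arrays. Efna4, under the brightness limit, ranged from 3.04 to 3.37 in knockout and from 2.93 to 3.26 in control brains.

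The Eph receptors lay mostly below 0, with 10 of 13 negative and a median of -0.08, where the median of all genes was 0.01. Epha6 and Epha10 were among the 10 and turned positive with median-centred arrays. None besides Epha2 had an unadjusted p under 0.05 without pairs. Epha7, a receptor of A ephrins used in cortical patterning, was at -0.23 ± 0.15 (SE) and the dim Epha1 at -0.26 ± 0.16. Epha3 had the highest value, with 5.55, 5.52 and 5.82 in knockout brains, against 5.64, 5.44 and 5.67 in control brains (0.05 ± 0.13, SE). Epha4, Epha5, Epha8 and Ephb4 lay between -0.16 and -0.07, and Ephb6 was at 0.0091. Ephb1 was read by 2 probesets with overlapping groups. The brighter one had 7.34, 7.21 and 7.55 in knockout brains, against 7.27, 7.20 and 7.55 in control brains (0.02 ± 0.14, SE). The dimmer one had 4.18, 4.30 and 4.38 in knockout brains, against 4.42, 4.28 and 4.33 in control brains (-0.06). Ephb2 was not analysed here.

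Of the 9 plexins, 7 lay above 0, with a median of 0.07. Besides Plxnc1 and Plxnb1 the values ran from -0.07 for Plxna3 to 0.14 for Plxnb3. Plxna3 had 5.24, 4.88 and 5.49 in knockout brains, against 5.14, 4.99 and 5.67 in control brains, with each group spanning most of the other. Plxnb2 and Plxnd1, a plexin of vessels, were at 0.01 and 0.07. Plxna1 had 7.35, 7.08 and 7.76 in knockout brains, against 6.92, 7.14 and 7.78 in control brains (0.12 ± 0.26, SE). Its dimmer second probeset had 4.17, 4.55 and 4.43 in knockout brains, against 4.11, 4.34 and 4.32 in control brains (0.13).

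The neuropilins, the co-receptors of class 3 semaphorins, overlapped between groups. Nrp1 had 6.59, 6.33 and 6.58 in knockout brains, against 6.36, 6.17 and 6.47 in control brains (0.17 ± 0.13, SE). Each of its knockout arrays exceeded the control array of the same number. Nrp2 had 6.38, 6.28 and 6.63 in knockout brains, against 6.56, 6.13 and 6.59 in control brains (0.0021 ± 0.16).

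In the Slit and Robo system, Slit1 and Slit2 held the highest and the lowest value. Slit1 had 6.19, 5.93 and 6.72 in knockout brains, against 5.87, 5.60 and 6.78 in control brains (0.20 ± 0.33, SE). Slit2 had 6.55, 6.44 and 7.13 in knockout brains, against 6.70, 6.75 and 7.25 in control brains (-0.19 ± 0.22). In both genes the array numbered 3 was the highest of its group, and the groups overlapped. Slit3 was at 0.03, and Robo1 and Robo3 at 0.05 and 0.07. Robo2, a main neuronal Slit receptor, had 8.20, 8.22 and 8.64 in knockout brains, against 8.33, 8.49 and 8.63 in control brains (-0.13 ± 0.16, SE). Robo4, the endothelial Robo, had the smallest p of this system, with 3.70, 3.64 and 3.86 in knockout brains, against 3.50, 3.62 and 3.76 in control brains (0.10 ± 0.12, SE; limma adjusted p = 0.9998). Its values were below their array's median on all 6 arrays, as were those of Robo3.

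In the netrin system, Ntn3 had the highest value, with 4.760, 4.624 and 4.800 in knockout brains, against 4.423, 4.362 and 5.003 in control brains (0.13 ± 0.18, SE). Controls 1 and 2 lay below every knockout array and control 3 above them. Ntn1, a long-range cue of the midline, had 5.57, 6.05 and 6.35 in knockout brains, against 6.10, 5.69 and 6.11 in control brains (0.02 ± 0.22, SE), and Ntn4 was also at 0.02. Dcc, the attractive netrin receptor, had 6.11, 6.09 and 7.05 in knockout brains, against 6.37, 6.31 and 7.15 in control brains (-0.19 ± 0.32, SE). Each knockout array was below the control array of its number, and the step up to the arrays numbered 3 was larger than the difference between groups. Unc5a, which mediates repulsion, had 7.42, 7.23 and 7.54 in knockout brains, against 7.09, 7.16 and 7.56 in control brains (0.13 ± 0.16, SE). Unc5b, Unc5c and Unc5d were at -0.09, 0.06 and 0.03.

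The 3 symbols matched by spelling alone were also without a call. Unc50, a Golgi protein gene, was at -0.06, Unc5cl, a death-domain protein gene, at -0.07, and Plxna4os1 at -0.14, each within its standard error. Whether the probesets separate Plxna4os1 from the overlapping Plxna4 was not tested.

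The members' sign count depended on single arrays. Without knockout 3, 14 of 69 symbols (20.3%) lay above 0, at a median of -0.15, against 51.6% of all genes. Without control 3, 51 of 69 (73.9%) did, at a median of 0.10, against 54.5% of all genes. In each of these settings an array numbered 3 remains in the other group only. Without control 2 the count above 0 was 15 (21.7%), at a median of -0.08, against 52.3% of all genes. Without both arrays numbered 3, 28 of 69 (40.6%) lay above 0 (median -0.04), against 54.0% of all genes. Then 4 symbols, Epha2, Ephb4, Ntn3 and Sema4d, had an unadjusted p under 0.05, or 5.8%, against 5.13% of all genes.

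**Figure D4:**
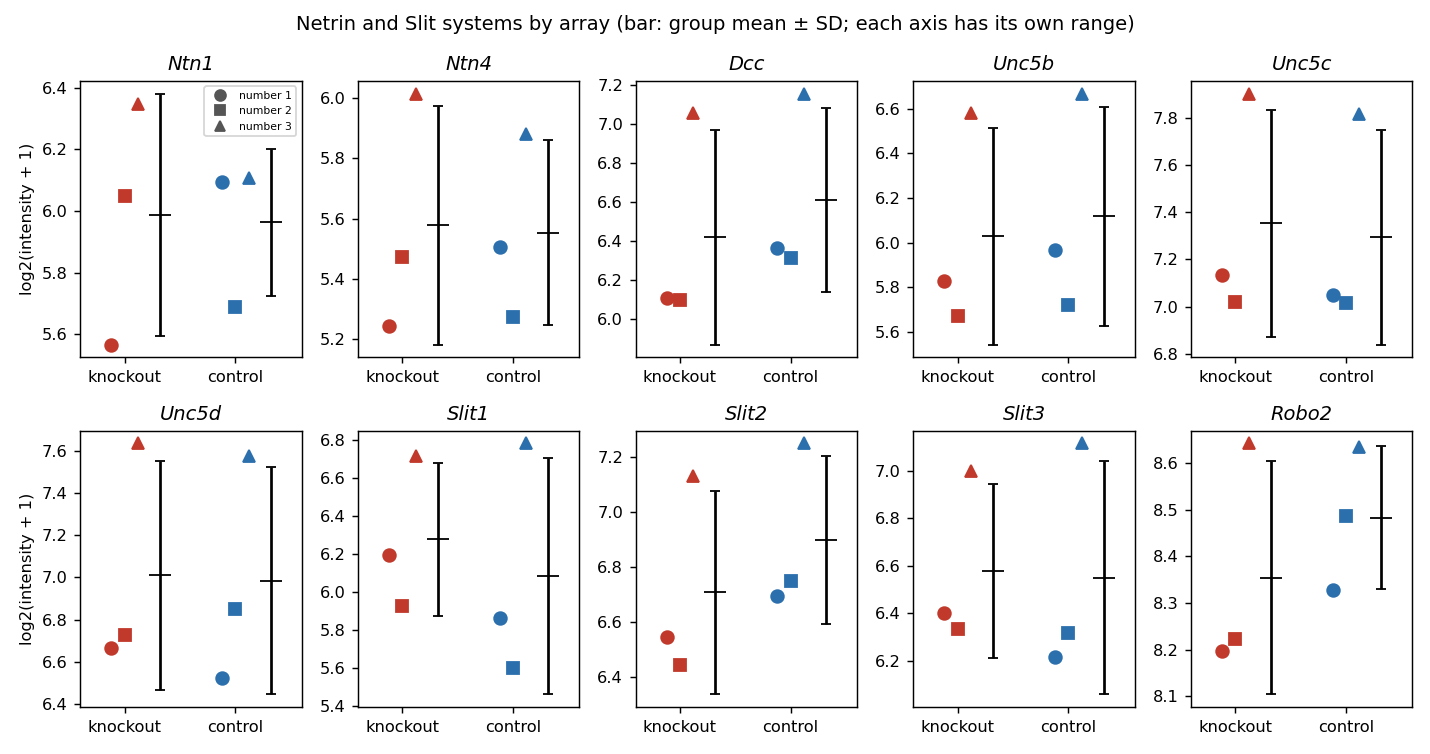
Log2 level on each array of 10 genes of the netrin and Slit systems, with knockout left and control right in each panel, symbols for the replicate number and bars for group mean ± SD (n = 3). In all 10 genes the triangles (number 3) of both groups stand above the other 4 arrays.

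The guidance genes also differed by replicate number. In 50 of the 66 guidance genes both arrays numbered 3 lay above the other 4, and in 1, Sema3b, both lay below. Among all genes, 23.4% lay above and 20.6% below. The median of the number 3 arrays minus the rest was 0.31 on the log2 scale over the guidance genes and 0.01 over all genes. In 21 guidance genes (31.8%) the difference exceeded 0.5, as it did in 6.55% of all genes. These are descriptions of 2 arrays against 4, with no test.

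Plxna2, a receptor subunit for class 3 and class 6 semaphorins, had the largest difference. Knockout 3 was at 8.24 and control 3 at 8.16, while knockouts 1 and 2 were at 7.34 and 7.17 and controls 1 and 2 at 7.27 and 7.19. Plxna4, the partner of neuropilin in sensory axons, had 7.48, 7.16 and 8.15 in knockout brains, against 7.22, 7.37 and 8.23 in control brains. Unc5d, a netrin receptor of cortical neurons, had 6.67, 6.73 and 7.64 in knockout brains, against 6.53, 6.85 and 7.58 in control brains. In these genes the step to number 3 was 0.83 to 0.98 in each genotype, while the fold change between genotypes was 0.05, -0.01 and 0.03. For Plxna4 that fold change turned positive with deposited and with median-centred values.

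The netrin receptors had the highest family median of this step. All 5 had both arrays numbered 3 above the rest, with a median difference of 0.83, and Dcc was at 0.88, Unc5b at 0.83, Unc5c at 0.81 and Unc5a at 0.32. The 3 Slits had differences of 0.58 to 0.85 and the 3 netrins 0.36 to 0.57. The 4 A plexins had 0.52 to 0.95, and the 7 semaphorins of classes 5 to 7 had 0.19 to 0.73, all with both arrays above. Of the class 3 semaphorins 3 of 7 lay above, at a median of 0.20, and Sema3d had -0.33. Robo1, Robo2 and Robo4 were 0.19 to 0.33 higher and Robo3 was at -0.07. Of the 13 Eph receptors 9 lay above, led by Epha4, which guides corticospinal and interneuron axons, at 0.71. Of the 7 ephrins 4 did, led by Efna2 at 0.53. The share of all genes with both arrays above was 23.4%.

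**Figure D5:**
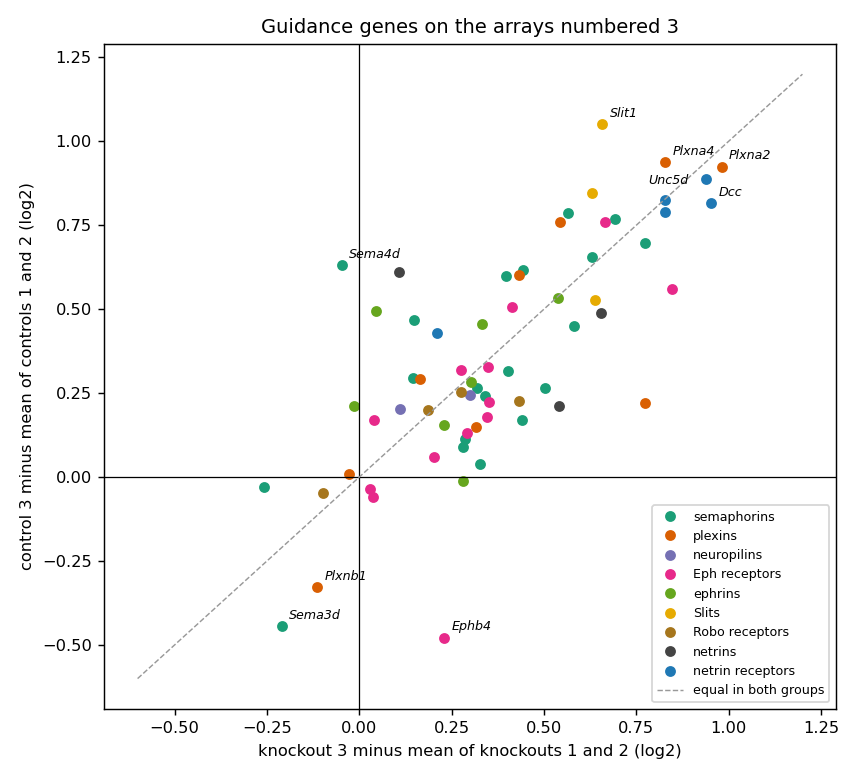
For each tested guidance gene, knockout 3 minus the mean of the other knockouts (horizontal, log2) against control 3 minus the mean of the other controls (vertical, log2), coloured by family. Of 66 genes 55 are positive on both axes, and Plxnb1, Sema3d and Ephb4 are among those that are not.

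The step was present in both genotypes. It was positive in both for 55 of 66 guidance genes (83.3%), against 38.2% of all genes, with medians of 0.34 in knockout and 0.29 in control brains. Across the guidance genes the 2 steps had a Pearson r of 0.74 (n = 66 genes), and across all genes 0.75. The genes share the arrays and their normalization and are no independent replicates. Some genes had opposite signs in the genotypes. Sema4d was at -0.05 in knockout and 0.63 in control brains, and Ephb4, a receptor of vein endothelium, at 0.23 in knockout and -0.48 in control brains.

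Marker levels moved with the replicate number. The summed normalized intensity of the 7 neuron markers was 14691 and 14752 on the arrays numbered 3, against 9776 to 10358 on the rest, and 6 of the 7 lay above on both arrays. Endothelial markers summed to 299 to 323 on the arrays numbered 3, against 140 to 168, with all 5 above. Only 3 of these 5 endothelial markers exceeded the array median on each array. Meningeal fibroblast markers summed to 295 to 337, against 552 to 636, and microglia markers to 493 to 532, against 670 to 730, with 0 of 5 above in each list. Sums of oligodendrocyte (6 measured of 7), astrocyte and choroid plexus markers were 3139 to 3531, 2483 to 2667 and 5491 to 5569 on the arrays numbered 3, against 3009 to 3528, 2638 to 2947 and 5301 to 6869 on the rest. Those of oligodendrocyte precursors and liver were 478 to 506 and 53.2 to 54.8, against 500 to 583 and 54.4 to 63.2. No marker was at 0 on any array. Between genotypes, the ranges of all 9 marker lists overlapped, with neuron markers at 10330 to 14691 in knockout and 9776 to 14752 in control brains. Mean levels were higher in knockout brains for 7 of 7 neuron (median log2 fold change 0.02), 5 of 5 astrocyte (0.09), 4 of 4 choroid plexus (0.11) and 4 of 5 meningeal fibroblast markers (0.20). They were higher for 3 of 5 microglia (0.03), 3 of 5 endothelial (0.0016), 1 of 6 oligodendrocyte (-0.12), 0 of 3 precursor (-0.05) and 1 of 4 liver markers (-0.15). The part of cell composition in the step between arrays, or in the differences between genotypes, was not tested.

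The share of genes with this pattern also differed by gene span and brightness. In the longest of 5 equal bins of genes by RefSeq span, 39% of all genes had both arrays numbered 3 above, against 11.7% in the shortest bin, while 17.3% had both below, against 23.6%. The longest bin held 32 of the 66 guidance genes, and 27 of these 32 lay above. In bins 2, 3 and 4 from the shortest, 7 of 10, 10 of 16 and 5 of 7 guidance genes lay above, beside 18.3%, 21.2% and 27.1% of all genes there. By mean level, the share of all genes with both arrays above was 38.1% in the brightest bin, against 8.03% in the dimmest, and the share with both below was 34.4%, against 8.51%. The median step of all genes lay between -0.01 and 0.02 in each of the 5 bins. From the dimmest bin to the brightest, 1 of 4, 6 of 11, 14 of 18, 20 of 21 and 9 of 12 guidance genes lay above. What part span or brightness has in the pattern was not tested. The arrays numbered 3 were also those with Xist at log2 7.68 and 7.69, against 2.52 to 2.79 on the rest. Replicate number and Xist level therefore coincide on these arrays, and the part of sex was not tested.

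Other genes of the pathway were read from a list of 67 co-receptors, cues and growth-cone effectors, of which 62 were tested and the others were not analysed here. None passed between knockout and control (0 with a limma adjusted p under 0.05, and 0 with an unadjusted p under 0.05), with 32 above 0 and 30 below, at a median of 0.01. Groups did not overlap in 2 of the 62, the kinase gene Pak3 and the adaptor gene Nck2, a share below the 5.7% of all genes. Pak3 had 7.52, 7.42 and 7.58 in knockout brains, against 7.59, 7.72 and 7.61 in control brains (-0.13 ± 0.10, SE), and Nck2 was at 0.09 ± 0.10. The smallest p-values belonged to Draxin, a netrin antagonist, at -0.25 ± 0.17 (SE), the actin-oxidizing enzyme Mical1 at 0.14 ± 0.11, Pak3, and Cdon, a Hedgehog co-receptor, at -0.18 ± 0.16. With pairs the count under an unadjusted p of 0.05 was 1 of 62, where it was 4.85% of all genes. This was Ablim3, an actin-binding protein gene, at 0.29 (limma adjusted p = 0.984).

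In this list the arrays numbered 3 stood above in 35 of 62 genes and below in 8, beside 23.4% and 20.6% of all genes. L1cam, an adhesion molecule that works with neuropilin, had 7.53, 7.48 and 8.47 in knockout brains, against 7.41, 7.52 and 8.57 in control brains. Chn2, which encodes a Rac-inactivating effector, was 1.02 higher on the arrays numbered 3. Rock1, a kinase downstream of RhoA, ran the other way, with 8.19, 8.49 and 7.53 in knockout brains, against 8.39, 8.37 and 7.68 in control brains.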

How the data were processed

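The deposited table holds linear-scale intensity values of 41340 probesets on 6 arrays, processed by the authors. The submitters' processing notes name MAS5 with no version. How background was corrected, what the arrays were scaled to and whether dim probesets were removed is not stated in what was available. Per the labels' protocols, 150 ng of RNA was labelled. The table has 0 unused columns of per-sample values.

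Intensities were transformed to log2(intensity + 1) and quantile normalized, because the medians of the deposited arrays differed by 0.12 on the log2 scale, over a limit of 0.1. A level is this log2 value, and fold changes on this scale understate changes of dim genes. The probe table names 1 symbol for 23521 probesets, giving 22180 genes; the probeset with the highest mean stood for a gene, and genes under the 25th percentile (log2 3.28) were left out. All 70 symbols had a row in the RefSeq table of GRCm38.p6, used for span and promoters. The array number limits precision, and no detection calls were used.

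Groups were compared with limma 3.58.1 (lmFit, eBayes, two-sided) in R 4.3.3 over 16635 genes with Benjamini-Hochberg adjustment. The procedure was tested on simulated data with independent noise on each array. Those data lacked the step shared by the arrays numbered 3, so the simulation does not measure what could be detected here. Deviations from group means correlated at 0.31, 0.37 and 0.75 for numbers 1, 2 and 3, each over 0.1, so the numbers were taken as pairs; this comes from the data and not from a label, and among numbers 1 and 2 the crossed pairs correlated at least as closely as the matched ones, at 0.40 for knockout 2 with control 1 and 0.37 for knockout 1 with control 2. Deviations within a group sum to 0, so a step shared by the arrays numbered 3 by itself makes numbers 1 and 2 correlate, matched or crossed. The correlations of numbers 1 and 2 therefore cannot show pairing. Members, lists and tests were chosen with earlier results of these data known. Values in every array are given for members with an unadjusted p under 0.05, with groups that do not overlap, with the smallest p or the highest or lowest fold change of a family, with 1 of the 3 largest spreads within groups, or read by 2 probesets. For the other pathway genes the 4 smallest p-values are named. Genes beyond these rules were named after their values were seen. Promoters were searched in Python 3.11.15 and plotting used matplotlib 3.10.9.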

Additional observations from a re-analysis of the deposited data

How the results depend on the processing

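The counts of guidance genes, of all genes and of other pathway genes past a limma adjusted p of 0.05 were 0 under each of the 17 alternatives run: deposited or median-centred values, a pseudocount of 16, no filter or the upper 50% of genes, the mean over probesets, an intensity trend, array weights, the replicate block, Xist as a covariate, without both arrays numbered 3, and each array left out. With the replicate block, 3 guidance genes and 806 of all genes had an unadjusted p under 0.05, against 1 and 282 without it, and it changed no call at the adjusted threshold. With Xist as a covariate the counts were 6 (8.7%; Dcc, Epha2, Epha7, Plxnb1, Plxnc1 and Slit2) and 766 (4.6%). With 1 array left out the guidance count ran from 0 to 2 (0% to 2.9% of the symbols), against 0.98% to 3.45% of all genes. Non-overlapping symbols then numbered up to 13 of 69, without control 3, where 3522 of all 16635 genes did not overlap, a higher share. The all-gene count was 465 without a filter, 88 in the upper 50% of genes and 755 with array weights. The count of symbols with both arrays numbered 3 above the rest was read under 6 other settings, which were chosen after seeing the data. It was 46 of 58 in the upper 50% of genes and 50 to 54 of 69 or 70 in the others. The share of all genes ran from 19.1% to 30.1%.

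Of the 69 tested symbols 18 kept their sign under every alternative that tested them, Epha2, Plxnb1, Plxnc1 and Ephb3 among them, and 11 changed it with deposited or centred values. For Epha2, Plxnb1 and Plxnc1, whose groups do not overlap, leaving out arrays could not turn the sign. The intensity trend and the replicate block leave every fold change as it was. The share of all genes that kept their sign was not computed. The turns listed next are only those of Elavl1 and of the genes chosen by the naming rules. Elavl1 turned with centred arrays (0.014), and Ephb1 with the mean over probesets (-0.018). Plxna4 turned with deposited values (0.013), centred arrays (0.049) and without both arrays numbered 3 (0.023). Array weights gave -0.031 for Efnb2 and -0.048 for Unc5d, and leaving out both arrays numbered 3 gave -0.072 for Efnb2 and -0.0079 for Epha3. With 1 array left out, log2 fold changes ran from -0.51 to 0.080 for Dcc, -0.18 to 0.053 for Efnb1, -0.069 to 0.11 for Efnb2, -0.18 to 0.080 for Elavl1, -0.052 to 0.10 for Epha3, -0.069 to 0.13 for Ephb1, -0.064 to 0.37 for Plxna1, -0.28 to 0.35 for Plxna2, -0.21 to 0.13 for Plxna3, -0.29 to 0.30 for Plxna4, -0.49 to 0.0050 for Sema4c, -0.045 to 0.55 for Slit1 and -0.29 to 0.32 for Unc5d. Other symbols turned with 1 array left out as well. Among them were Epha4 (-0.30 to 0.18), Unc5b (-0.37 to 0.19), Unc5c (-0.22 to 0.32) and Slit3 (-0.18 to 0.31). The cause of these turns was not tested. Signal limits the dimmest members: Epha2, Robo3 and Robo4 were below their array's median on all 6 arrays and Epha1 on 5.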
